A study of Mus musculus with 12 samples.

Results

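The glucocorticoid pathway was described in the cortex of aged E4FAD mice through 9 genes: the receptor genes Nr3c1 and Nr3c2, and 7 genes that respond to glucocorticoids, Fkbp5, Sgk1, Tsc22d3, Zbtb16, Errfi1, Sult1a1 and Hif3a. They were chosen by name, with earlier results of these data known, and matched by Ensembl identifier. They are 9 of the 50563 genes in the count table, in which 30214 genes were detected in 1 mouse or more. The RNA-Seq data came from 12 mice with 1 library each. E4FAD mice are homozygous for human APOE4 in place of mouse Apoe and carry the familial Alzheimer's disease transgenes of the 5xFAD line, and all mice of both groups had this genotype. The 7 CTRL mice received vehicle and the 5 DPAn-6 mice received 700 mg/kg of DPAn-6 (n-6 docosapentaenoic acid) daily by oral gavage for 3 weeks, and the same antioxidants (alpha-tocopherol and palmitoyl ascorbic acid) were given to all groups. In CTRL, replicates 1 and 7 were 12 months old and the other 5 mice were 14 months old, and in DPAn-6, replicates 3 and 4 were 12 months old and replicates 1, 2 and 5 were 14 months old. Both groups held females and males, but sex is not labelled mouse by mouse, and the sources used here give no time of day at which the brains were taken.

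Glucocorticoids are steroid hormones of the adrenal gland whose level follows the time of day and rises with stress. They cross into the brain and bind the glucocorticoid receptor, encoded by Nr3c1, and the mineralocorticoid receptor, encoded by Nr3c2, which binds the hormone more tightly. The bound receptors enter the nucleus and raise or lower the transcription of target genes, some of which act back on the pathway. In brain tissue many of these targets are strongest in glia and vessel cells.

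Total counts were 15339098 to 19500154 in CTRL and 15208803 to 26520251 in DPAn-6, and each marker gene of the cell type and region lists had a count in 1 mouse or more. The summed markers of excitatory cortical neurons, which check the labelled tissue, were 13.12 to 13.42 log2 CPM in CTRL and 13.16 to 13.24 in DPAn-6. Choroid plexus markers reached 10.75 in CTRL replicate 2, against a CTRL median of 5.16 and a DPAn-6 maximum of 4.76. Other CTRL mice were high too, as Ttr of this list had 10.58 in replicate 2, 9.88 in replicate 5 and 7.38 in replicate 3. Levels are given as log2 CPM, the log2 of the count, plus 0.5, scaled to a library of 1000000 counts. Differences are log2 fold changes of DPAn-6 over CTRL from edgeR's quasi-likelihood test, with p-values adjusted by the Benjamini-Hochberg method over the 15688 genes tested, and a gene was called at an adjusted p below 0.05. The exact permutation test is two-sided over all splits of the mice into 7 and 5, with a smallest possible p of 0.00126.

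Sult1a1 was the 1 gene of the 9 that fell in DPAn-6 mice by this rule, and it was also the 1 gene whose groups did not overlap. Over all genes tested 1.55% were called, 1.14% lower and 0.408% higher, and 3.22% had groups that did not overlap, 1.49% lower and 1.73% higher. With no adjustment, 4 of the 9 had an edgeR p below 0.05, beside 14.5% of all genes tested. All 4 were lower (Sult1a1, Hif3a, Zbtb16 and Fkbp5), beside 9.02% of all genes. None of the 9 was higher at an unadjusted p below 0.05, beside 5.51% of all genes. The receptors, Sgk1, Tsc22d3 and Errfi1 did not pass in either direction. Because the 9 genes were chosen with earlier results known, their counts beside the shares of all genes are descriptions and carry no test.

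**Figure D1:**
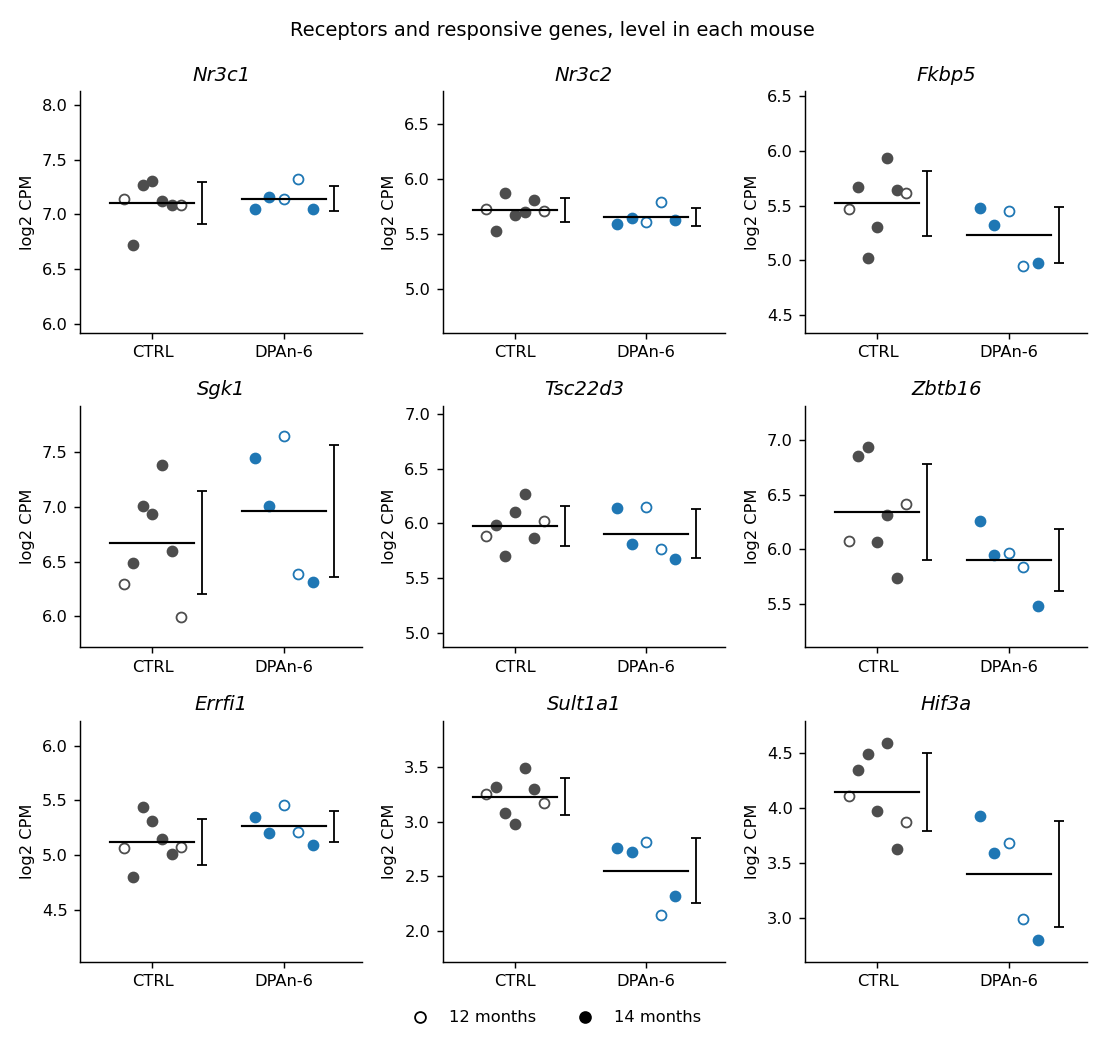
Level of the 9 genes in each mouse (y axis, log2 CPM, each panel spanning the same range of 2.2 log2 units) for 7 CTRL and 5 DPAn-6 mice in order of replicate number, with open circles for 12 months and filled circles for 14 months, a line at the group mean and a bar of 1 SD beside it. All 5 DPAn-6 mice lie below all 7 CTRL mice for Sult1a1, and DPAn-6 replicates 4 and 5 are the lowest mice for Hif3a.

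Nr3c1 (ENSMUSG00000024431, chromosome 18), the glucocorticoid receptor gene, had a lowest value of 6.72, a median of 7.12 and a highest value of 7.31 log2 CPM in CTRL. In DPAn-6 replicates 1 to 5 it had 7.05, 7.16, 7.14, 7.32 and 7.05 log2 CPM. The groups overlapped over most of their range, and CTRL replicate 2 lay below every other mouse. They differed by a log2 fold change of 0.01 (standard error 0.09, adjusted p = 0.983 by edgeR, exact permutation p = 0.734). Its sign was negative without CTRL replicate 2 (-0.05) or DPAn-6 replicate 4 (-0.03).

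Nr3c2 (ENSMUSG00000031618; chromosome 8, 76899442 to 77245012, GRCm38, forward strand), the mineralocorticoid receptor gene, had a lowest value of 5.52, a median of 5.71 and a highest value of 5.88 log2 CPM in CTRL. The 5 DPAn-6 mice had 5.59, 5.65, 5.61, 5.80 and 5.63, all within the CTRL range. For Nr3c2 the log2 fold change was -0.09 (standard error 0.07, adjusted p = 0.638 by edgeR, exact permutation p = 0.294). Exons of Nr3c2 share 247 bases with Gm10649 on the other strand, and without the strand setting of the counting their reads cannot be told apart there. Gm10649 had 13 to 42 counts per mouse beside 718 to 1312 for Nr3c2.

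Per kilobase of exon, Nr3c1 exceeded Nr3c2 in every mouse. The difference of the receptors was 1.14 ± 0.14 log2 CPM per kb (SD, n = 7) in CTRL, from 0.95 to 1.38, and 1.24 ± 0.05 (SD, n = 5) in DPAn-6, from 1.17 to 1.28. The DPAn-6 mice lay inside the CTRL range, and the shift of 0.10 had an exact permutation p of 0.145.

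Sult1a1 (ENSMUSG00000030711; chromosome 7, 126672865 to 126676432, reverse strand) encodes a cytosolic sulfotransferase that attaches sulfate to phenolic compounds. Its level in CTRL had a lowest value of 2.98, a median of 3.25 and a highest value of 3.49 log2 CPM, and the level was 2.76, 2.72, 2.81, 2.15 and 2.32 in DPAn-6 replicates 1 to 5. Every DPAn-6 mouse was below every CTRL mouse, and within the DPAn-6 group replicates 4 and 5 were lower than the other 3. Sult1a1 had a log2 fold change of -0.68 (standard error 0.13), or 0.622 times the CTRL level, with an adjusted p of 0.0188 by edgeR's quasi-likelihood test and an exact permutation p of 0.00126, the smallest these groups allow. In bulk tissue, fewer cells of a type and less RNA per cell cannot be told apart.

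The counts behind Sult1a1 were 67 to 219 per mouse. By age, the 2 CTRL mice of 12 months had 3.17 and 3.25 log2 CPM of Sult1a1, against 2.15 and 2.81 in DPAn-6. At 14 months the 5 CTRL mice had 2.98 to 3.49, against 2.32 to 2.76 in the 3 DPAn-6 mice. As the whole groups did not overlap, the groups at each age could not overlap either. The adjusted p was 0.0577 without DPAn-6 replicate 4 and 0.0683 without replicate 5, and 0.272 in the 14-month mice only, with log2 fold changes of -0.59, -0.61 and -0.66. Exons of Sult1a1 share 61 bases with Sgf29 on the other strand, and Sgf29 had a log2 fold change of 0.08 (unadjusted p = 0.431 by edgeR).

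Hif3a (ENSMUSG00000004328; chromosome 7, 17031507 to 17062427, reverse strand) encodes the alpha subunit of hypoxia-inducible factor 3. The CTRL mice had a lowest value of 3.62, a median of 4.11 and a highest value of 4.60 log2 CPM, and DPAn-6 replicates 1 to 5 had 3.93, 3.59, 3.68, 2.99 and 2.80. Of the DPAn-6 mice 3 were below all CTRL mice and the other 2 were inside the CTRL range. The log2 fold change of -0.75 (standard error 0.21) was the most negative of the 9, with an adjusted p of 0.0922 by edgeR and an exact permutation p of 0.0126. Without CTRL replicate 3 its adjusted p was 0.0477, and it was 0.0167 by DESeq2. Among the 12-month mice the values were 3.88 and 4.11 in CTRL and 2.99 and 3.68 in DPAn-6, and among the 14-month mice they were 3.62 to 4.60 and 2.80 to 3.93.

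Zbtb16 (ENSMUSG00000066687; chromosome 9, 48654297 to 48836222, reverse strand) encodes a zinc finger transcription factor. In CTRL it had a lowest value of 5.74, a median of 6.31 and a highest value of 6.94 log2 CPM, and it had 6.26, 5.95, 5.97, 5.84 and 5.48 in DPAn-6. All 5 DPAn-6 mice lay below the CTRL mean of 6.34, but only replicate 5 was below all CTRL mice. Its difference was a log2 fold change of -0.50 (standard error 0.20, unadjusted p = 0.0219 and adjusted p = 0.242 by edgeR, exact permutation p = 0.0808). Over the mice left out in turn the exact permutation p was 0.0260 to 0.173, and only leaving out CTRL replicate 6 brought it below 0.05.

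Fkbp5 (ENSMUSG00000024222; chromosome 17, 28399094 to 28517527, reverse strand) encodes a co-chaperone that binds the receptor complex and lowers its affinity for the hormone, so that its induction closes a feedback loop. It had a lowest value of 5.02, a median of 5.61 and a highest value of 5.93 log2 CPM in CTRL, and 5.48, 5.32, 5.45, 4.95 and 4.97 in DPAn-6. Replicates 4 and 5 were below all CTRL mice and the other 3 were inside the CTRL range. Fkbp5 thus had a log2 fold change of -0.31 (standard error 0.14, unadjusted p = 0.0377 and adjusted p = 0.307 by edgeR, exact permutation p = 0.104). With each mouse left out in turn the exact permutation p was 0.0238 to 0.248, and it was below 0.05 only without CTRL replicate 3.

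Sgk1 (ENSMUSG00000019970; chromosome 10, 21882184 to 21999903, forward strand) encodes a serine/threonine kinase that acts on ion channels and transporters. It had the widest spread in both groups, with a lowest value of 5.997, a median of 6.60 and a highest value of 7.38 log2 CPM in CTRL and 7.45, 7.01, 7.64, 6.39 and 6.31 in DPAn-6. DPAn-6 replicates 1 and 3 were above all CTRL mice, whereas replicates 4 and 5 were below the CTRL median. The log2 fold change of 0.30 (standard error 0.26) had an adjusted p of 0.667 by edgeR and an exact permutation p of 0.359.

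Tsc22d3 (ENSMUSG00000031431; chromosome X, 140539528 to 140600659, reverse strand) encodes GILZ, a leucine zipper protein that restrains inflammatory transcription. The values in CTRL had a lowest of 5.70, a median of 5.99 and a highest value of 6.27 log2 CPM, and those in DPAn-6 were 6.14, 5.81, 6.15, 5.77 and 5.67. The groups overlapped, and the log2 fold change was -0.09 (standard error 0.10, adjusted p = 0.774 by edgeR, exact permutation p = 0.566).

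Errfi1 (ENSMUSG00000028967; chromosome 4, 150853919 to 150868892, forward strand) encodes an inhibitor of the epidermal growth factor receptor. It had a lowest value of 4.80, a median of 5.07 and a highest value of 5.44 log2 CPM in CTRL, and 5.35, 5.20, 5.46, 5.21 and 5.10 in DPAn-6. The groups overlapped here too, with a log2 fold change of 0.11 (standard error 0.11, adjusted p = 0.715 by edgeR, exact permutation p = 0.221).

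Of the 7 responsive genes 2 were higher and 5 lower, with a median log2 fold change of -0.31, beside a median of -0.0047 over all genes tested, of which 7640 were higher and 8048 lower. The mice of the DPAn-6 group were not uniform for these genes. Replicates 4 and 5, of which replicate 4 was 12 months and replicate 5 was 14 months old, were the 2 lowest of the group in 6 of the 7 genes. Averaged over the 7 genes and set against the CTRL mean, DPAn-6 replicates 1 to 5 stood at 0.05, -0.20, 0.02, -0.53 and -0.62 on the log2 scale. The CTRL mice ranged from -0.18 to 0.30, so replicates 1 and 3 lay within the CTRL range, replicate 2 just below it, and replicates 4 and 5 well below it.

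Levels of different genes are compared per kilobase of exon. In CTRL the mean log2 CPM per kb was 4.38 for Sgk1, 4.16 for Nr3c1, 3.94 for Zbtb16, 3.86 for Tsc22d3, 3.28 for Errfi1, 3.02 for Nr3c2, 2.63 for Sult1a1, 2.28 for Fkbp5 and 1.40 for Hif3a. The range of each gene overlapped that of its neighbour in this order over the 7 CTRL mice. Compared within each mouse, Errfi1 exceeded Nr3c2, Nr3c2 exceeded Sult1a1, Sult1a1 exceeded Fkbp5 and Fkbp5 exceeded Hif3a in every CTRL mouse. The other neighbours did not keep their order in every CTRL mouse. In DPAn-6 the mean of Sult1a1 was 1.96 ± 0.30 (SD, n = 5), and it stood beside Fkbp5 at 1.99 ± 0.26.

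Ages were compared as 14 against 12 months. With the group in the model, 0 of the 9 genes passed at an adjusted p, and 0 of all genes (0%) did by edgeR. At an unadjusted p below 0.05 the counts were 0 of the 9 and 279 of all genes tested, or 1.78%. In the CTRL mice alone, Sgk1 was the 1 gene of the 9 at an unadjusted p below 0.05, beside 2.71% of the genes tested there. Its log2 CPM was 6.30 and 5.997 in the 2 mice of 12 months and 6.49 to 7.38 in the 5 mice of 14 months. These ranges did not overlap, but they set only 2 mice against 5, and the share of all genes so separated was not counted. The log2 fold change for age was 0.78 (standard error 0.23, unadjusted p = 0.00795 and adjusted p = 0.979 by edgeR). In DPAn-6 the 12-month mice had 6.39 and 7.64 and the 14-month mice 6.31 to 7.45, so the ages overlapped. In the interaction of age and group 0 of the 9 genes passed at an adjusted or an unadjusted p below 0.05, beside 0.00637% and 4.26% of all genes, and that of Sgk1 was -0.94 (standard error 0.50, unadjusted p = 0.0807 and adjusted p = 0.905 by edgeR).

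Pairs of the 9 genes were correlated over the 12 mice after the mean of each group was removed, so that a shared difference between the groups could not make a correlation. Of 36 pairs, 9 had a permutation p below 0.05, all of them positive, and 1 passed after Benjamini-Hochberg adjustment over the 36 pairs. The share of pairs among all genes that would pass was not counted, so these counts cannot be set beside it. That pair was Fkbp5 with Sult1a1, with Pearson's r = 0.858 (permutation p = 0.0006, adjusted p = 0.0216) and Spearman's rho = 0.888 (permutation p = 0.00095, adjusted p = 0.0342). Leaving out the 2 mice farthest from the Fkbp5 median, which were replicates 4 and 5 of DPAn-6, gave r = 0.848, and r was 0.830 to 0.940 with each mouse left out in turn. Within the groups r was 0.851 over the 7 CTRL mice and 0.971 over the 5 DPAn-6 mice, as descriptions of few mice. Without any single one of the DPAn-6 mice, 0 of the 36 pairs passed after adjustment.

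The mice that were low in Fkbp5 were thus low in Sult1a1 inside each group, while the groups stood apart in Sult1a1 and overlapped in Fkbp5. DPAn-6 replicates 1 and 3, with 5.48 and 5.45 log2 CPM of Fkbp5, had 2.76 and 2.81 of Sult1a1, whereas CTRL replicate 1, with 5.47 of Fkbp5, had 3.25 of Sult1a1.

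**Figure D2:**
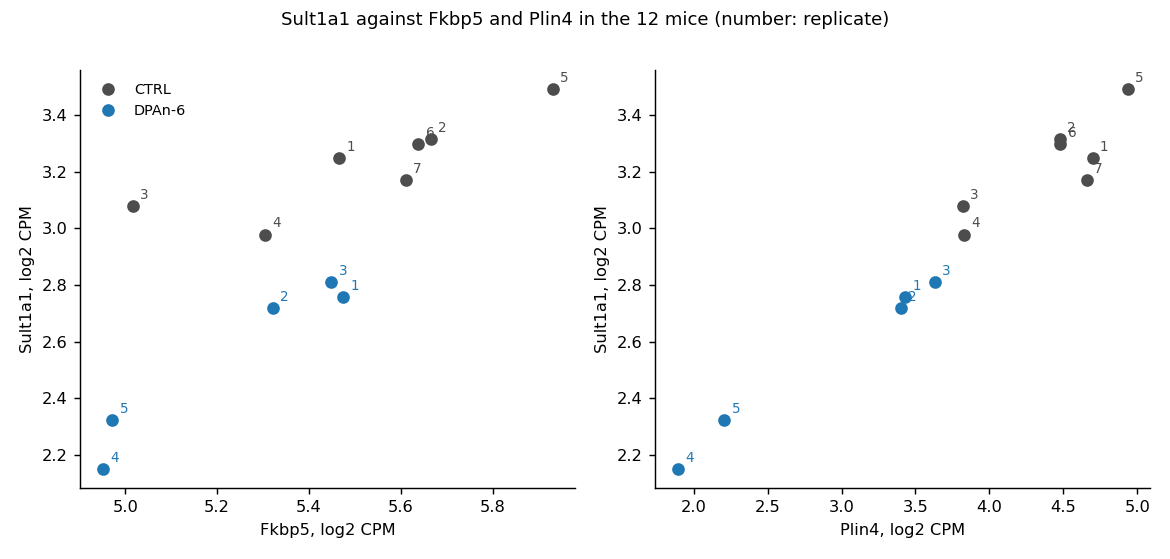
Level of Sult1a1 (y axis, log2 CPM) against Fkbp5 (left) and Plin4 (right) in the 7 CTRL mice (grey) and 5 DPAn-6 mice (blue), with replicate numbers beside the points. Within each group both relations run upward, and DPAn-6 replicates 4 and 5 are the lowest mice of both panels for Sult1a1.

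The next pairs did not pass after adjustment. Zbtb16 and Hif3a had r = 0.739 (permutation p = 0.00442, adjusted p = 0.0796) and rho = 0.713, with r = 0.775 without CTRL replicates 2 and 3. Sgk1 and Hif3a had r = 0.778 (permutation p = 0.0106, adjusted p = 0.0958), and Fkbp5 and Tsc22d3 had r = 0.773 (permutation p = 0.00816, adjusted p = 0.0958). Fkbp5 and Zbtb16, by contrast, had r = 0.0043 (permutation p = 0.990, adjusted p = 0.990). Nr3c1 and Errfi1 had r = 0.709 (permutation p = 0.0224, adjusted p = 0.134). The receptors had r = 0.756 with each other (permutation p = 0.0141, adjusted p = 0.102), which rested on CTRL replicate 2 and DPAn-6 replicate 4, since r was 0.148 without them. With group means left in, 4 pairs passed after adjustment, and the r of Sult1a1 with Hif3a was 0.848 (permutation p = 0.0006, adjusted p = 0.0181) where it was 0.666 with them removed.

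**Figure D3:**
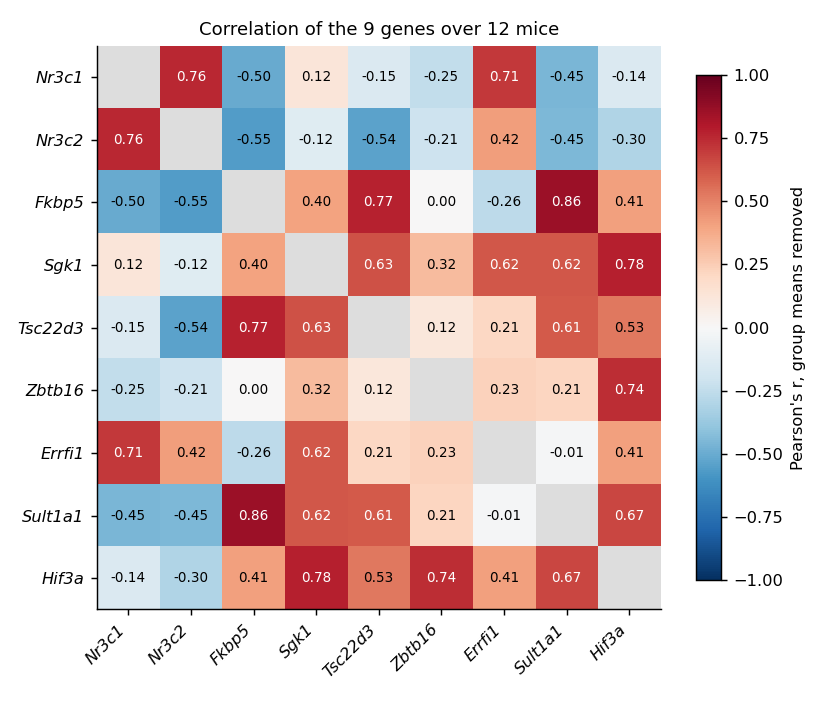
Pearson's r of each pair of the 9 genes over 12 mice with group means removed (colour from -1 to 1, value in each cell). Fkbp5 with Sult1a1 has the highest r, 0.86. The receptors have a positive r with Errfi1 (0.71 for Nr3c1 and 0.42 for Nr3c2), and Nr3c1 also with Sgk1 (0.12). Their r with the other responsive genes is negative, in no case with a permutation p below 0.05.

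Among all other genes tested, those most like Fkbp5 by the same centred r over 12 mice were Spns2 (0.940), Ulk1 (0.931), Foxo3 (0.928), C77080 (0.920) and E530011L22Rik (0.920). Each of these exceeded the r of 0.858 between Fkbp5 and Sult1a1. The most like the mean of the 7 responsive genes were Nfkbia (0.921), Net1 (0.904), Gm44421 (0.901), Zfat (0.872) and Glt1d1 (0.824). None of these 10 genes was called between the groups. The ranking for Sult1a1 was added after its values were seen, and there Plin4 came first (0.953), followed by Ncoa3 (0.898), Zfat (0.889), Tex52 (0.876) and Klf15 (0.875). These values rank genes from the same 12 libraries and carry no test.

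Promoters were read for the members from RefSeq on GRCm38.p6, as 250 bases before to 50 bases after each start site. Entries were found for 7 of the 9 genes, with 15 start sites in all, and Nr3c1 and Zbtb16 had none. The receptors bind as a pair to inverted repeats, and the full motif, GNACA and TGTNC with 3 bases between them, which is its own reverse complement, was in 156 of all 32851 promoters (0.475%) and in 1 of the 15. The single site AGAACA, counted on either strand (TGTTCT on the other) and including those that overlap the full motif, was in 6233 promoters (19%) and in 5 of the 15. Of these 5, 3 were among the 6 start sites of Sgk1, and Sult1a1 and Tsc22d3 had 1 such promoter each. The 15 are thus not independent, and by gene the site was in 3 of 7. The Hif3a promoter had neither motif. The full motif was at the Sgk1 start site whose promoter is shown first, with the match at -188 to -176 from the start. The Sult1a1 promoter is shown because its gene fell, and had single sites at -212 to -207 and at -34 to -29. The Fkbp5 promoter is shown because Fkbp5 varied with Sult1a1 between mice, and these letters are not in this window. The 250 bases before the start are printed 5′ to 3′ on the strand of the gene, with capitals for the single sites and the full motif:
Sgk1, chr10:21993640-21993889, forward strand: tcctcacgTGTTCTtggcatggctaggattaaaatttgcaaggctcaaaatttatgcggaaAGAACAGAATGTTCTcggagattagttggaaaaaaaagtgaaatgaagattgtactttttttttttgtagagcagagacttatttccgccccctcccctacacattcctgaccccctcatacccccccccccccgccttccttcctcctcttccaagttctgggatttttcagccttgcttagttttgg
Sult1a1, chr7:126676419-126676668, reverse strand: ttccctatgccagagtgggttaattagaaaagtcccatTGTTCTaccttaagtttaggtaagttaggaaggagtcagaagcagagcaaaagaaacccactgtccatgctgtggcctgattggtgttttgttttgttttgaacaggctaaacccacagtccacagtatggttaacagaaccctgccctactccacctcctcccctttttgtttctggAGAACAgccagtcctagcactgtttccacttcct
Fkbp5, chr17:28486150-28486399, reverse strand: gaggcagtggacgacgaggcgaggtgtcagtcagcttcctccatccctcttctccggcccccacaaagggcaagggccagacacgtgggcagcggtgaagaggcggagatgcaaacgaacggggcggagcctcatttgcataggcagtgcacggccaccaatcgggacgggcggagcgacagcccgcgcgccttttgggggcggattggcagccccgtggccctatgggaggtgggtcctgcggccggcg
The last 14 bases of the Sult1a1 stretch lie in exons of GENCODE M21, and the other stretches lie outside of exons. A match of letters is a description of the sequence and was not tied to binding here.

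Other genes of the pathway were counted by list. Of 30 other glucocorticoid-responsive genes, 29 were tested, 14 higher and 15 lower, with a median log2 fold change of -0.02. Among them 2 fell (Plin4 and Mertk) and 0 rose at an adjusted p below 0.05, beside 1.14% and 0.408% of all genes, and at an unadjusted p below 0.05 there were 5 lower and 3 higher. Of 18 receptor chaperones and cofactors, 9 were higher and 9 lower, with a median of 0.00, and 0 were called by edgeR, with 2 higher and 1 lower at an unadjusted p below 0.05. Of 13 genes of steroid supply and the stress axis 9 were tested, 4 higher and 5 lower, with a median of -0.07, and 2 rose (Crh and Crhbp), beside 0.408% of all genes. At an unadjusted p below 0.05, 9.02% of all genes were lower and 5.51% higher. The lists were chosen with earlier results known, so these counts are descriptions and carry no test. Hsd11b2, Serpina6, Avp and Ucn, and Slc10a6 among the responsive genes, did not pass the filter on low counts.

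Plin4 (ENSMUSG00000002831; chromosome 17, 56100591 to 56109803, reverse strand) encodes a perilipin, a coat protein of lipid droplets. It had a lowest value of 3.82, a median of 4.48 and a highest value of 4.93 log2 CPM in CTRL, and 3.43, 3.40, 3.63, 1.89 and 2.21 in DPAn-6. All DPAn-6 mice were below all CTRL mice, and replicates 4 and 5 were again the lowest. Its counts ranged from 56 to 596. The log2 difference of -1.42 had a standard error of 0.29 and an adjusted p of 0.0240 by edgeR. The adjusted p was 0.0508 without CTRL replicate 1, 0.0555 without DPAn-6 replicate 4 and 0.0683 without DPAn-6 replicate 5. The centred r of Plin4 was 0.953 with Sult1a1, from 0.927 to 0.977 with each mouse left out, and 0.864 with Fkbp5.

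Mertk (ENSMUSG00000014361; chromosome 2, 128698956 to 128802894, forward strand), a receptor tyrosine kinase for the uptake of dying cells, had 6.22, 6.47 and 6.73 log2 CPM as the lowest, median and highest CTRL values. The DPAn-6 mice had 6.16, 6.28, 6.08, 6.02 and 5.95, with 4 of the 5 below all CTRL mice. It had a log2 fold change of -0.40 (standard error 0.09, adjusted p = 0.0485 by edgeR). It was called with CTRL replicate 3 or CTRL replicate 6 left out and with none of the other 10 mice left out, where the adjusted p was 0.0586 to 0.155. The gene with the next smallest p of this list was Gjb6, a gap junction gene of astrocytes, with a log2 fold change of -0.23 (adjusted p = 0.122 by edgeR).

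Crh (ENSMUSG00000049796; chromosome 3, 19693401 to 19695396, reverse strand) encodes corticotropin-releasing hormone, the peptide that starts the stress axis in the hypothalamus and that interneurons of the cortex also make. It had a lowest value of 1.44, a median of 1.86 and a highest value of 2.08 log2 CPM in CTRL, and 2.88, 2.23, 2.71, 2.40 and 2.32 in DPAn-6, from 46 to 135 counts per mouse. All DPAn-6 mice were above all CTRL mice, and the log2 fold change was 0.68 (standard error 0.14, adjusted p = 0.0302 by edgeR). Leaving out 1 mouse ended the call for CTRL replicates 1, 2, 4, 5 and 6 (adjusted p 0.0518 to 0.0643) and for DPAn-6 replicates 1, 3 and 4 (0.0960, 0.108 and 0.0607). The summed markers of inhibitory neurons were also higher in all DPAn-6 mice than in all CTRL mice (9.77 to 9.99 against 9.49 to 9.74 log2 CPM), and their part in the rises of Crh and Crhbp was not tested.

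Crhbp (ENSMUSG00000021680; chromosome 13, 95431371 to 95444924, reverse strand) encodes the protein that binds this hormone outside the cell. CTRL mice had a lowest value of 3.47, a median of 3.67 and a highest value of 3.94 log2 CPM, and DPAn-6 mice had 4.10, 4.09, 4.17, 4.06 and 4.29. The groups did not overlap, and the log2 fold change was 0.46 (standard error 0.09, adjusted p = 0.0214 by edgeR). The adjusted p was 0.0507, 0.0772 and 0.0710 without DPAn-6 replicates 1, 3 and 5. Pomc, the pituitary precursor of the next hormone of the axis, had 6 to 28 counts per mouse and a log2 fold change of -0.25 (unadjusted p = 0.322 by edgeR).

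Among the chaperones that fold the receptor, Hsp90ab1 and Hsp90aa1 had the smallest p-values. Hsp90ab1 had 10.26, 10.37 and 10.47 log2 CPM as its lowest, median and highest CTRL values and 10.59, 10.49, 10.56, 10.54 and 10.62 in DPAn-6, without overlap. Its log2 fold change was 0.16 (standard error 0.05, adjusted p = 0.164 by edgeR). Hsp90aa1 had a log2 fold change of 0.23 (adjusted p = 0.239 by edgeR) with overlap, and the coactivator gene Ep300 had -0.21 (adjusted p = 0.278 by edgeR).

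**Figure D4:**
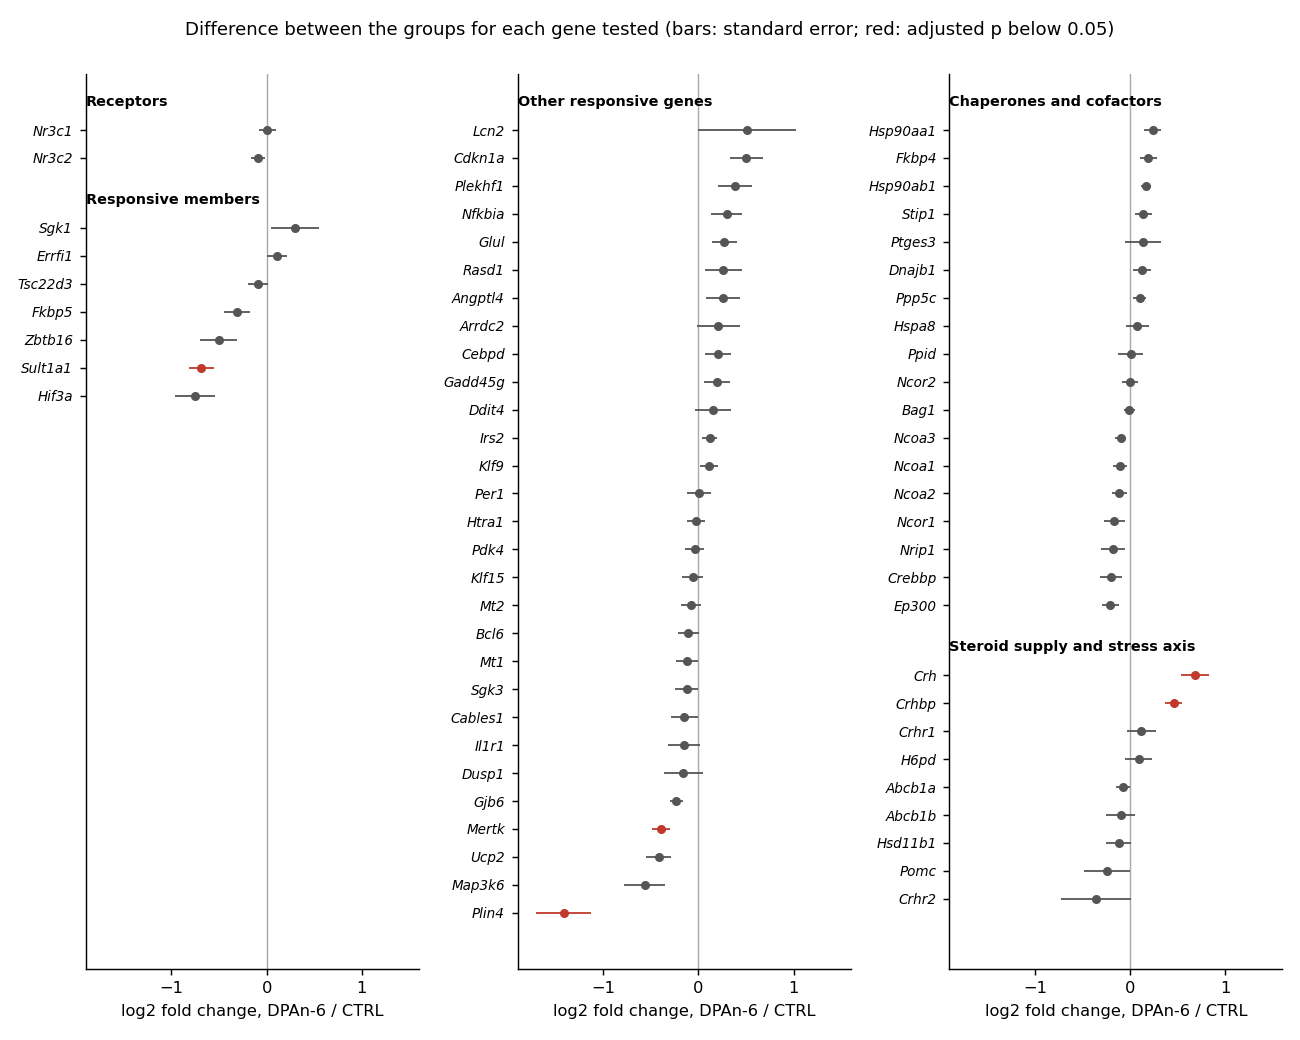
Log2 fold change of DPAn-6 over CTRL (x axis) for the 9 genes and for each tested gene of the other pathway lists, with bars of 1 standard error and red for an adjusted p below 0.05 by edgeR. Sult1a1, Plin4 and Mertk are the genes called lower, and Crh and Crhbp the genes called higher.

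Markers of cell types and other programmes moved with the groups, and their part in these results was not tested. Over all genes tested, 1.14% were called lower and 0.408% higher, and 9.02% were lower and 5.51% higher at an unadjusted p below 0.05. Microglial markers were lower in 12 of 12 genes (5 called, median -0.49), with a summed level of 10.11 to 10.69 log2 CPM in CTRL and 9.54 to 10.05 in DPAn-6. Leptomeningeal markers were lower in 10 of 10 (4 called, median -0.68), with sums of 7.01 to 7.98 and 6.29 to 7.25. Mural cell markers were lower in 10 of 10 (1 called, median -0.19), with sums of 8.56 to 8.66 and 8.36 to 8.46. Astrocyte markers were lower in 11 of 12 (0 called by edgeR, 4 lower at an unadjusted p below 0.05, median -0.16) and endothelial markers in 7 of 12 (median -0.06). Choroid plexus markers were lower in 6 of the 6 tested (0 called by edgeR, 5 lower at an unadjusted p below 0.05, median -2.53). Oligodendrocyte markers were higher in 10 of 12 (0 called by edgeR, 6 higher at an unadjusted p below 0.05, median 0.21). Striatal markers were higher in 10 of 10 (0 called by edgeR, 1 higher at an unadjusted p below 0.05, median 0.33), with overlapping sums of 8.31 to 9.71 in CTRL and 8.40 to 9.36 in DPAn-6. Markers of inhibitory neurons were higher in 10 of 10 (0 called by edgeR, 2 higher at an unadjusted p below 0.05, median 0.18), and their sums did not overlap, at 9.49 to 9.74 in CTRL and 9.77 to 9.99 in DPAn-6. Blood markers were lower in 5 of the 5 tested (0 called or at an unadjusted p below 0.05 by edgeR, median -0.21), and excitatory neuron and hippocampal markers had medians of 0.03 and 0.10.

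With Ttr, the main transcript of choroid plexus, as a covariate, the log2 fold changes of Hif3a and Zbtb16 were -0.41 and -0.20, and that of Sult1a1 was -0.59 (adjusted p = 0.339 by edgeR). With the mean of the oligodendrocyte list as a covariate, Sult1a1 had -0.53 (adjusted p = 0.266 by edgeR), Fkbp5 had -0.10, Hif3a had -0.46 and Sgk1 had 0.85 (unadjusted p = 0.00862). With the leptomeningeal list, a covariate chosen after the data were seen, Sult1a1 had -0.79 (unadjusted p = 0.00185 and adjusted p = 0.506 by edgeR), Fkbp5 had -0.50 and Hif3a had -0.51. These covariates also differed between the groups, with Ttr at 2.59 to 10.58 log2 CPM in CTRL and 0.87 to 3.88 in DPAn-6. A change on adding them therefore cannot tell their part from that of the treatment. Sult1a1 kept an unadjusted p below 0.05 in 30 of 30 alternatives and an adjusted p below 0.05 in 20 of them.

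**Figure D5:**
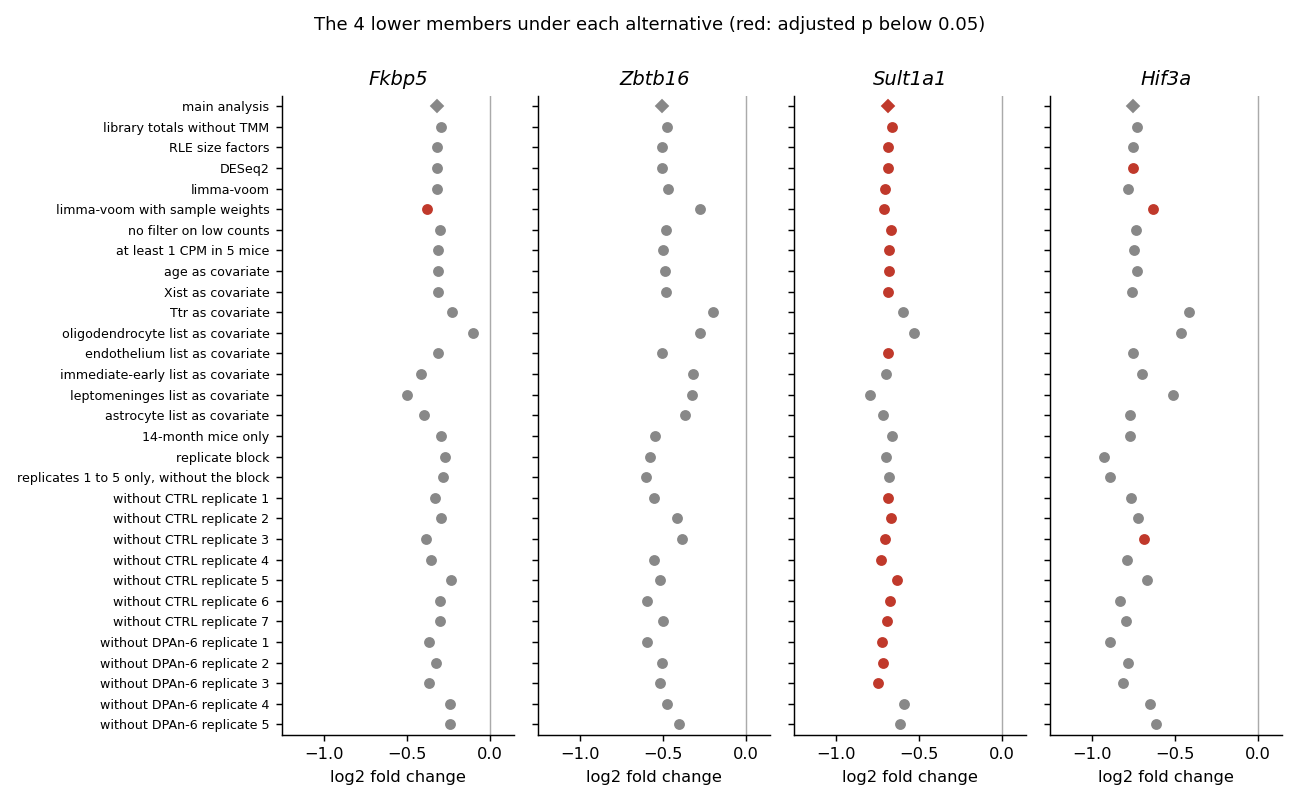
Log2 fold change (x axis) of Fkbp5, Zbtb16, Sult1a1 and Hif3a in the main analysis (diamond) and under 30 alternatives (circles), with red for an adjusted p below 0.05. All values are below 0, from -0.79 to -0.53 for Sult1a1 and from -0.93 to -0.41 for Hif3a.

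Clock and activity genes are given beside these values because glucocorticoids follow the time of day. Of 12 genes of the period, cryptochrome and Dbp arm of the clock, 10 were lower and 4 were called (Per2, Per3, Dbp and Bhlhe41, named after their values were seen), with a median of -0.32. Their summed level did not overlap, at 10.70 to 10.86 log2 CPM in CTRL and 10.52 to 10.62 in DPAn-6. Per1, which responds to glucocorticoids directly and was counted in the responsive list too, had a log2 fold change of 0.01. All 4 genes of the Bmal1 arm were higher, 1 of them called, with a median of 0.26. Of 14 immediate-early genes 11 were higher and 1 was called, with a median of 0.27. Over all genes tested 1.14% were called lower and 0.408% higher. With the mean of the immediate-early list as a covariate, Sult1a1 had a log2 fold change of -0.70 (adjusted p = 0.0823 by edgeR). As most genes of this list were higher in DPAn-6, that fit cannot tell their part from that of the treatment.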

How the data were processed

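The authors prepared KAPA mRNA libraries of mouse cortex, sequenced them on a HiSeq3000, aligned the reads with STAR (version 2.5.3a per the submitters' processing notes) to GRCm38 with Ensembl annotation and deposited counts per gene as raw, unnormalized values. Which strand column they took is not given in the sources used here. All 12 columns were matched to their labels. Positions and exon lengths are from GENCODE M21, in which 50339 of 50563 identifiers were matched. Total counts per mouse were at least 15208803. The precision for each named gene rested on its counts and on the spread between mice. Sgk1, with 1138 to 3973 counts, had a standard error of 0.26, and Sult1a1, with 67 to 219, had 0.13.

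The test was edgeR's quasi-likelihood test (version 4.0.16, R 4.3.3, with filterByExpr by group, TMM factors, glmQLFit and glmQLFTest) on 2 groups with no covariate, although the study's methods name limma-voom, which was an alternative. Alternatives also covered normalization, DESeq2 1.42.0, limma 3.58.1 with sample weights, filters, covariates, 14-month mice only, a replicate block and each mouse left out. Single genes were compared by exact permutation tests, and pairs of genes by 100000 permutations within groups (Python 3.11.15, numpy 2.4.6, pandas 2.3.3, scipy 1.17.1). In 5 simulated data sets of the comparison of 7 with 5 mice, where 200 of 15557 genes on average had a true log2 change of 1, 88.3% were recovered and 5.32% of calls were false.

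The 9 genes and all lists were chosen with earlier results of these data known. Named beside the 9 are the genes of the 3 other pathway lists with an adjusted p below 0.05 or among the 3 smallest p of their list, the 5 genes most like Fkbp5 and the 5 most like the mean of the 7 responsive genes, and markers by list. Where not stated otherwise, genes beyond this rule were named after their values were seen.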

Additional observations from a re-analysis of the deposited data

Results flagged for a closer look

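Of 36 sets of values checked (the 9 genes and the other named pathway genes, in each group), 2 had a mouse whose gap to its nearest neighbour was large for the range of its group by Dixon's criterion, and chance alone marks about 1 in 20. Nr3c1 in CTRL had 6.72 log2 CPM in replicate 2, below the other 6 mice at 7.08 to 7.31. The same mouse had the highest summed choroid plexus markers, 10.75 on the log2 scale. CTRL replicate 5, with the next highest Ttr (9.88 log2 CPM), had 7.12 log2 CPM of Nr3c1. Pomc in CTRL had -0.85 log2 CPM in replicate 3, from 8 counts, below the other 6 mice at -0.08 to 0.20.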

How the results depend on the processing

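Of the single-gene values under the alternatives, 449 kept their direction and their side of the threshold, 11 came to pass it, 70 came to miss it and 10 changed sign. The sign changed for Nr3c1 with age (-0.000918), Ttr (-0.11), the oligodendrocyte list (-0.0898) or the astrocyte list (-0.0592) as a covariate, in the 14-month mice (-0.0523) and in replicates 1 to 5 only (-0.00407), with a range of -0.0470 to 0.0442 over the mice left out. It also changed for Tsc22d3 with the oligodendrocyte list (0.0810) and for Pomc in the 14-month mice (0.0824). The astrocyte and leptomeningeal lists and replicates 1 to 5 without the block were chosen after the data were seen.

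The 243 genes called were 696 by DESeq2, 1267 by limma-voom with sample weights, 17 with Ttr, 30 with the oligodendrocyte list, 50 with the immediate-early list, 1 with the leptomeningeal list, 44 with the astrocyte list and 9 in the 14-month mice. They were 64 (without DPAn-6 replicate 3) to 953 (without CTRL replicate 3) with a mouse left out. Of the 9 genes, 1 was called in the main analysis, 2 by DESeq2 and 3 with sample weights (Sult1a1, Hif3a and Fkbp5), and 0 with each of the 5 covariates named, in the 14-month mice, and in replicates 1 to 5 with or without the block. The range was 0 (without DPAn-6 replicate 4 or 5) to 2 (without CTRL replicate 3) with a mouse left out. The 4 other pathway genes called were 10 with sample weights, 0 with each of the same covariates and in the 14-month mice, 2 in replicates 1 to 5, and 1 to 10 (10 without CTRL replicate 3) with a mouse left out. The pairs that passed were 4 with group means left in and 0 to 3 (3 without CTRL replicate 4) with a mouse left out, against 1. The cause of these shifts was not tested, although the 14-month set has 8 mice.

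The groups share the replicate numbers 1 to 5, and the labels give no pairing by number. Same-numbered mice did not deviate together over all genes tested (correlations of -0.12 to 0.22, with only number 4 closest to its own number). Such correlations cannot show that these mice share nothing but a number. With the replicate number as a block, 69 genes were called against 148 in the same mice without it, with 0 of the 9 genes (Sult1a1 -0.70, adjusted p = 0.0974 by edgeR) and 0 other pathway genes. By the exact permutation test 2 of the 9 genes passed 0.05 (Sult1a1 and Hif3a), as under the other scaling and pseudocount. Without CTRL replicate 3 the count was 3 (with Fkbp5, exact permutation p = 0.0238). Without CTRL replicate 6 it was also 3 (with Zbtb16, exact permutation p = 0.0260). The share of all genes passing the exact permutation test was not counted, so these counts cannot be set beside it. The age tests called 0 of the 9 also in the CTRL mice alone. Sult1a1 and Crh rest on 67 to 219 and 46 to 135 counts per mouse, which, beside the spread between mice, limits how small a difference could be seen.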

Other observations

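Nfkbia, which encodes the inhibitor of NF-kappa-B and is induced by glucocorticoids, was the gene most like the mean of the 7 responsive genes. It had 4.15, 4.46 and 4.86 log2 CPM as its lowest, median and highest CTRL values and 5.25, 4.64, 5.12, 4.35 and 4.32 in DPAn-6 replicates 1 to 5. Replicates 1 and 3 were above all CTRL mice, as for Sgk1, and replicates 4 and 5 were inside the CTRL range. Its log2 fold change was 0.30 (adjusted p = 0.444 by edgeR). Klf15, a transcription factor gene induced by glucocorticoids, had 4.98, 4.86, 5.09, 4.54 and 4.76 in DPAn-6 and 4.69, 4.85 and 5.27 as its lowest, median and highest CTRL values, with a log2 fold change of -0.06 (adjusted p = 0.861 by edgeR). Its centred r with Sult1a1 was 0.875, while only Sult1a1 of the pair was called.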
